A study of Homo sapiens with 6 samples.

Results

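The BCL2 family decides whether a cell keeps its mitochondria intact. Its guardians (BCL2, MCL1 and BCL2L1, the gene of BCL-XL) hold the killers in check. The effectors BAX and BAK1 open pores in the mitochondrial outer membrane, and the BH3-only proteins (here BIM from BCL2L11, PUMA from BBC3, NOXA from PMAIP1, BID and BAD) bind guardians or activate effectors. Plasma cells and myeloma cells are known to lean on MCL1, and venetoclax, a BCL2 inhibitor, is used in some myelomas. These 10 genes were taken by name as 3 guardians, 2 effectors and 5 BH3-only genes. All 10 were among the 12760 genes of the deposited FPKM table (reads or fragments counted on a gene, divided by its length and by library size).

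The cells were MM.1S, an established human multiple myeloma line. Cells put under lenalidomide, raised 10-fold each month for 3 months from 10 nM (LenR), were compared with cells kept in its solvent DMSO over the same time (WT), with 3 libraries in each group. Lenalidomide redirects the cereblon ubiquitin ligase to the transcription factors IKZF1 and IKZF3. All 6 libraries carry the genotype label WT. The labels do not say whether the drug was present at harvest or whether LenR replicates came from separate selections, so drug exposure and selection cannot be told apart and p-values describe the spread between these cultures only.

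Depth was even across libraries, from 14500140 to 17387914 reads, and the members had from 152 reads (PMAIP1, LenR replicate 1) to 10200 reads (MCL1, WT replicate 1) in a library. All 10 plasma cell markers looked for were expressed, with a summed level of 4040 to 4650 FPKM in WT and 4725 to 5657 in LenR. The limma test described below called 5 of the 10 higher (SDC1, PRDM1, XBP1, IRF4 and CD38) and 0 lower. Over all genes tested it called 8.57% higher and 6.57% lower. Of 21 markers of other cell types 5 had values, led by HBB (5.55 to 8.31 FPKM), PECAM1 (3.57 to 5.17) and CD3E (1.86 to 2.90), and the B cell and myeloid lists had none. WT replicate 3 and LenR replicate 2 shared one end of the component with 26.8% of the variance. Their values are therefore given beside the results they touch.

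Of the 10 genes, BCL2 and BBC3 rose in LenR, and none fell. A guardian and a killer thus rose together, while MCL1, BAK1, BCL2L11 and PMAIP1 had small negative differences that did not pass. The test was limma on log2(FPKM + 1), adjusted by the Benjamini-Hochberg method over 11276 genes whose mean reached 1 FPKM, a filter that all 10 members passed. Of those genes 15.1% passed the adjusted p threshold of 0.05 in either direction, 8.57% as higher and 6.57% as lower. With 2 of 10 called, the family was near that background. The median log2 fold change was 0.12 over the members and −0.002 over all genes tested, and the median size of change, without sign, was 0.14 and 0.12. By unadjusted p under 0.05, and by voom on the reads behind the table, the count was again 2 higher and 0 lower. Over all 11276 genes, 3236 had an unadjusted p under 0.05, and voom called 1038 higher and 728 lower. The groups did not overlap for 3 members (BCL2, BBC3 and BCL2L11), against 34.5% of all genes tested.

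**Figure D1:**
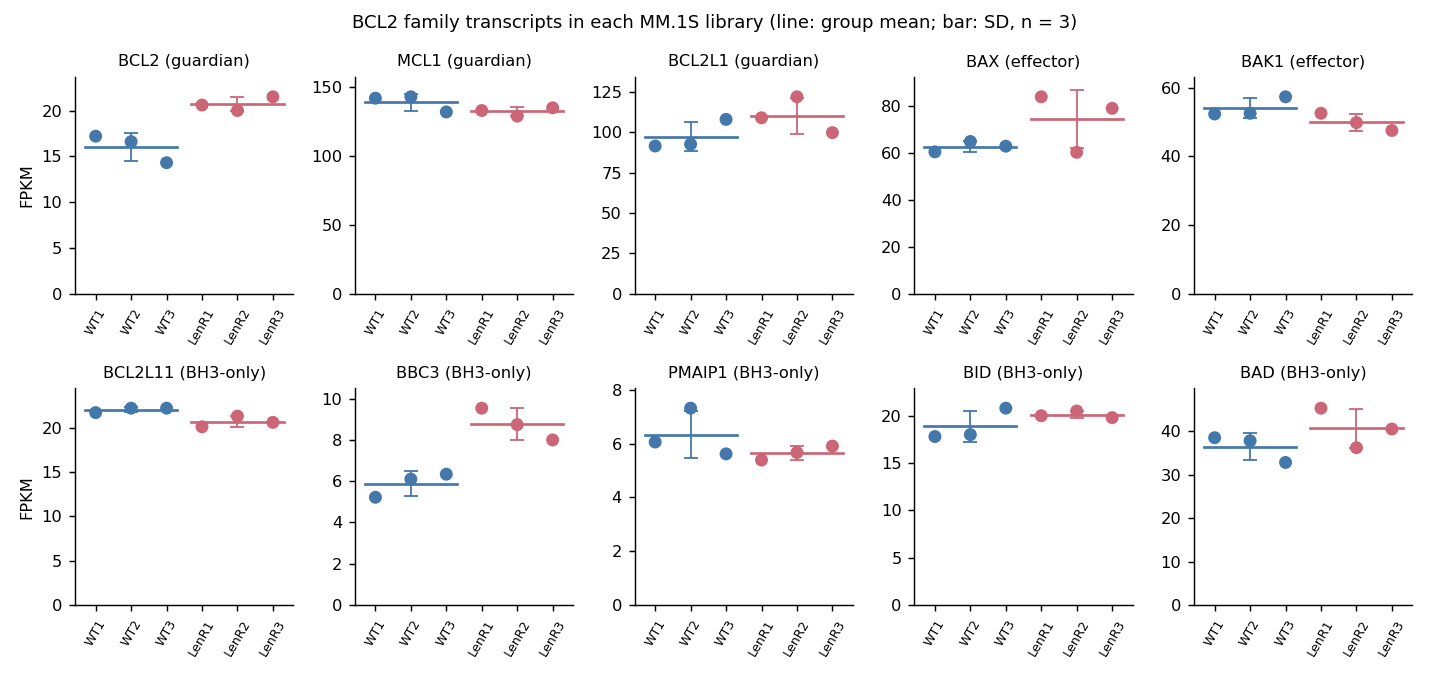
FPKM of each BCL2 family gene (vertical axes, each from 0) in the 3 WT (blue) and 3 LenR (red) libraries. Lines are group means and bars SDs (n = 3); LenR values lie above all WT values for BCL2 and BBC3 and below them for BCL2L11, and BAX in LenR2 (60.1 FPKM) lies just under the lowest WT value (60.3 FPKM).

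Promoter letters are printed here for BBC3, BAX, PMAIP1 and BAK1, and how far they differ was not measured. BBC3 is the killer that rose, BAX the one that split the LenR libraries, PMAIP1 a BH3-only gene at a level near that of BBC3, and BAK1 the partner effector of BAX. Shown 5′ to 3′ is sequence upstream of each gene, from RefSeq (GRCh38.p14), with capitals at matches to the motifs described next. The stretches of BAX (190 bases), PMAIP1 (202 bases) and BAK1 (233 bases) run up to the gene start used for chromosome position below. The BBC3 stretch is shorter (57 bases) and stops at 47232861, before the start of this minus-strand gene at 47232766. The bases between are not shown. BBC3 is at chr19:47232861-47232917 (minus strand), BAX at chr19:48954625-48954814 (plus strand), PMAIP1 at chr18:59899746-59899947 (plus strand) and BAK1 at chr6:33580294-33580526 (minus strand).
BBC3: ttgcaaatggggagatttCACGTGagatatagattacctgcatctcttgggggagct
BAX: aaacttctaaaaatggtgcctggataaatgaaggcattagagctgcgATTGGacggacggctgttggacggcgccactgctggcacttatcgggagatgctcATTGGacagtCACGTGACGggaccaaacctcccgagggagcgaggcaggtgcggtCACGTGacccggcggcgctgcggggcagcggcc
PMAIP1: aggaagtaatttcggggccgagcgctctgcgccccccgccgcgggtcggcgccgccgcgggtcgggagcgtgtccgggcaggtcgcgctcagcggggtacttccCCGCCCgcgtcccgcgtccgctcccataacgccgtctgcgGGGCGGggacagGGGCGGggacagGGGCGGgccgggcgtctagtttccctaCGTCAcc
BAK1: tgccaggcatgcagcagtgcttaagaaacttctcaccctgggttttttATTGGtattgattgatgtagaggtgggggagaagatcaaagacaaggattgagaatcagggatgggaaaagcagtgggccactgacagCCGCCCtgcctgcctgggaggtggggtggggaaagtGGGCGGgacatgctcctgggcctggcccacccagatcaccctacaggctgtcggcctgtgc

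RefSeq windows were matched for 9 of the 10 members, all but MCL1. Motifs were searched on both strands in the 250 bases before each RefSeq start, in 35116 windows of all genes. They were the E-box CACGTG, at which MYC and its partners can bind, the GC box GGGCGG, the box CCAAT, the cyclic AMP element core TGACG and the C/EBP-ATF element TGATGNAA. BAX had 4 E-boxes in its window, 2 of them in the stretch printed, and the first overlaps a TGACG match. A window with at least 1 E-box was found for 6.34% of all windows and one with at least 4 for 0.0142% (5 windows). BBC3 had 1 E-box, BID had 1 in some of its 5 windows, and PMAIP1 and the other matched members had none. PMAIP1 had 4 GC boxes, as did some windows of BID, and 7.63% of all windows had at least 4. BAK1 had 2 GC boxes and 1 CCAAT match. No member window held the C/EBP-ATF element (3.14% of all windows). A match is a string of letters here, and binding was not measured.

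Among the guardians, BCL2 rose. It measured 17.2, 16.6 and 14.3 FPKM in WT replicates 1 to 3 and 20.6, 20.0 and 21.5 FPKM in LenR replicates 1 to 3. Every LenR library lay above every WT library, and the lowest value was that of WT replicate 3. The means were 16.0 ± 1.55 and 20.7 ± 0.726 FPKM (SD, n = 3 per group), a log2 fold change of 0.35 (SE 0.0818, limma adjusted p = 0.0248). The difference was 0.30 between the other 4 libraries and 0.46 between WT replicate 3 and LenR replicate 2. The adjusted p passed 0.05 when WT replicate 2 (0.0639), LenR replicate 1 (0.0834) or LenR replicate 3 (0.0631) was left out, which ended the call, and with WT replicates 1 and 2 averaged (0.0523).

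MCL1, the short-lived guardian that binds NOXA, was the most abundant member in all 6 libraries. It measured 142, 143 and 132 FPKM in WT and 133, 129 and 135 FPKM in LenR, and the groups overlapped at WT replicate 3. The log2 fold change was −0.07 (95% interval −0.24 to 0.09, limma adjusted p = 0.562). BCL2L1 measured 91.5, 92.6 and 108 FPKM in WT and 109, 122 and 99.8 FPKM in LenR. It was highest within each group in WT replicate 3 and LenR replicate 2, and the groups overlapped. Its log2 fold change of 0.18 did not pass (95% interval −0.06 to 0.42, adjusted p = 0.31). With a term for those 2 libraries, which takes up their shared shift of 0.23 and 0.22, BCL2L1 passed (adjusted p = 0.034), as did 28.1% of all genes. Of the annotated exon bases of BCL2L1, 43.0% lie opposite the antisense gene ABALON, and since the strand setting is not given in the sources used here, reads of the 2 genes cannot be told apart there. ABALON itself was counted at 7.14 FPKM in WT and 9.24 FPKM in LenR (group means) and rose (log2 fold change 0.33, adjusted p = 0.0148).

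Neither effector passed the test, and BAX split the LenR libraries. BAX measured 60.3, 64.7 and 62.7 FPKM in WT and 83.7, 60.1 and 78.8 FPKM in LenR. LenR replicates 1 and 3 lay above all WT libraries, and LenR replicate 2 lay below all of them. The log2 fold change was 0.23 (95% interval −0.05 to 0.51, limma adjusted p = 0.269). Without LenR replicate 2 it was 0.37 and passed (adjusted p = 0.0202, a fit in which 13.6% of genes passed), so this 1 library decides the call. It also passed without both WT replicate 3 and LenR replicate 2 (adjusted p = 0.0163).

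BAK1 measured 52.3, 52.5 and 57.3 FPKM in WT and 52.5, 49.8 and 47.5 FPKM in LenR. The groups touched at LenR replicate 1, and the log2 fold change was −0.11 (95% interval −0.28 to 0.06, limma adjusted p = 0.373). The ratio of BAX to BAK1 was 1.15, 1.23 and 1.09 in WT and 1.59, 1.21 and 1.66 in LenR. In this ratio LenR replicate 2 lay within the WT range and the other LenR libraries above it.

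Of the BH3-only genes, BBC3 rose. This gene of PUMA, which can bind all guardians, measured 5.22, 6.10 and 6.34 FPKM in WT and 9.54, 8.74 and 8.0 FPKM in LenR. All LenR values lay above all WT values. From means of 5.89 ± 0.587 and 8.76 ± 0.771 FPKM (SD, n = 3 per group), the log2 fold change was 0.50 (SE 0.0899, limma adjusted p = 0.00785). Behind these values were 192 to 212 reads per WT library and 290 to 293 per LenR library. The call held in all 20 alternative fits, with adjusted p from 0.00376 to 0.0436.

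PMAIP1, the gene of the MCL1 antagonist NOXA, measured 6.06, 7.32 and 5.62 FPKM in WT and 5.39, 5.67 and 5.91 FPKM in LenR. The groups overlapped, and the log2 fold change was −0.13 (95% interval −0.35 to 0.08, limma adjusted p = 0.403). BCL2L11 measured 21.7, 22.2 and 22.2 FPKM in WT and 20.1, 21.3 and 20.6 FPKM in LenR. This gene of BIM, which also binds all guardians, was lower in each LenR library than in any WT library, but by little. Its log2 fold change was −0.09 (95% interval −0.23 to 0.05, adjusted p = 0.389). MIR4435-2HG lies opposite 10.9% of its exon bases.

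BID, which caspase-8 cleaves to link death receptors to mitochondria, measured 17.8, 18.0 and 20.8 FPKM in WT and 20.0, 20.5 and 19.8 FPKM in LenR. WT replicate 3 was the highest of the 6, and the log2 fold change was 0.09 (95% interval −0.09 to 0.26, limma adjusted p = 0.498). BAD, which survival kinases keep phosphorylated and away from BCL-XL, measured 38.5, 37.8 and 32.8 FPKM in WT and 45.3, 36.2 and 40.5 FPKM in LenR. It was lowest within each group in WT replicate 3 and LenR replicate 2. The log2 fold change was 0.15 (95% interval −0.08 to 0.39, adjusted p = 0.373). GPR137 lies opposite 23.7% of the exon bases of BAD, with the same limit as for BCL2L1.

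**Figure D2:**
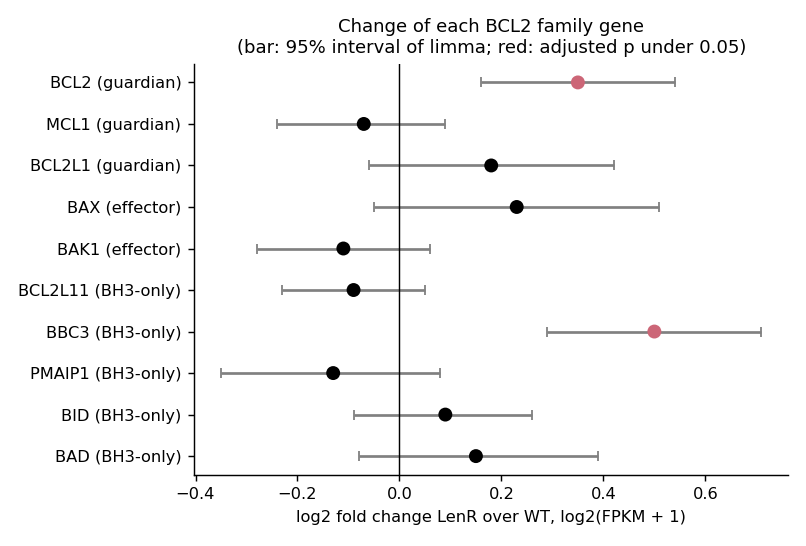
Log2 fold change of LenR over WT on log2(FPKM + 1) (horizontal axis) for each member, with the 95% interval of limma (n = 3 per group). The intervals of BCL2 (0.16 to 0.54) and BBC3 (0.29 to 0.71), in red, passed the adjusted threshold; the other 8 include 0.

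The order of the levels, per gene length, was nearly the same in every library. MCL1 (mean of 6 libraries 136 FPKM) was followed by BCL2L1 (104), BAX (68.4), BAK1 (52.0) and BAD (38.5), and each of these 5 held its place in all 6 libraries. BCL2L11 (21.3), BID (19.5) and BCL2 (18.4) lay close together. BCL2 was eighth of the 10 in the WT libraries and in LenR replicate 2, and sixth in LenR replicates 1 and 3, where it lay above BCL2L11 and BID. BBC3 (7.32) and PMAIP1 (6.00) were lowest, and BBC3 lay above PMAIP1 in 4 of the 6 libraries. These ranks rest on the gene lengths used by the authors, which the files imply to be 6620 nt for BCL2 and 1224 nt for BAD, for example.

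The balance of guardians and killers was described as a ratio of summed FPKM within each library, with no test. The guardian sum was 251, 252 and 255 FPKM in WT and 262, 271 and 256 FPKM in LenR. The killer sum was 202, 209 and 208 FPKM in WT and 237, 202 and 221 FPKM in LenR. Guardians over killers therefore came to 1.24, 1.21 and 1.23 in WT and 1.11, 1.34 and 1.16 in LenR. LenR lay on both sides of the WT range, with replicate 2 above it and replicates 1 and 3 below it. The means were 1.23 ± 0.018 and 1.20 ± 0.121 (SD, n = 3 per group), so the difference of the means was smaller than the spread within LenR, which was the wider of the groups.

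Split by role, guardians over effectors were 2.17 ± 0.0562 in WT and 2.14 ± 0.286 in LenR (SD, n = 3), and guardians over BH3-only genes 2.82 ± 0.0741 and 2.75 ± 0.163. Both overlapped between the groups. The guardian sum and the BH3-only sum did not overlap. The guardian gap was narrow, at 255 FPKM in WT replicate 3 and 256 FPKM in LenR replicate 3. The BH3-only sum was 87.7 to 91.5 FPKM in WT and 92.4 to 100 FPKM in LenR. It leaves out BMF (49.3 to 56.3 FPKM in WT, 40.7 to 46.7 FPKM in LenR) and BIK, which overlapped. Neither sum was scaled to equal FPKM totals, which ranged from 368426 (LenR replicate 2) to 398003 (LenR replicate 1). The effector sum overlapped (113 to 120 and 110 to 136 FPKM).

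BCL2 held a larger share of the guardian sum in each LenR library than in any WT library. This share was 6.84%, 6.60% and 5.60% in WT and 7.83%, 7.39% and 8.38% in LenR. MCL1 made up 51.9% to 56.7% in WT and 47.5% to 52.6% in LenR, and BCL2L1 most of the rest. BCL2 over BCL2L11 was 0.790, 0.751 and 0.644 in WT and 1.02, 0.939 and 1.04 in LenR, without overlap, and the mean of BCL2 over MCL1 was 0.115 in WT and 0.157 in LenR. BCL2 over BAX overlapped (0.228 to 0.285 in WT, 0.246 to 0.333 in LenR), as did MCL1 over PMAIP1 (19.5 to 23.5 and 22.7 to 24.6). Among the killers, BBC3 made up 2.59% to 3.05% in WT and 3.62% to 4.32% in LenR, BAK1 25.2% to 27.6% and 21.5% to 24.6%, and BCL2L11 10.6% to 10.8% and 8.49% to 10.5%, all without overlap. The shares of the other 4 killers overlapped. For single genes, 34.5% of all tested did not overlap, and for sums, ratios and shares no such background was computed.

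**Figure D3:**
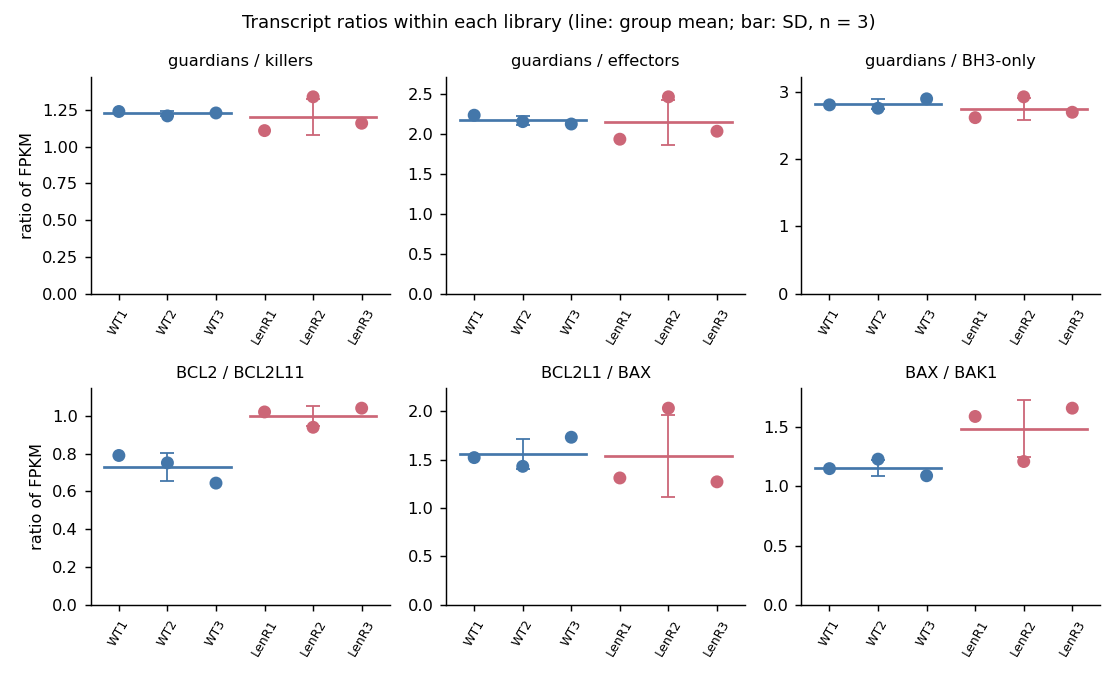
Ratios of FPKM within each library (vertical axes, each from 0) for sums of guardians, effectors and BH3-only genes and for 3 gene pairs, with group means (lines) and SDs (bars, n = 3). LenR replicate 2 stands apart from the other LenR libraries in guardians over killers (1.34 against 1.11 and 1.16) and in BAX over BAK1 (1.21 against 1.59 and 1.66), while BCL2 over BCL2L11 separates the groups.

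The other 6 lists of the mitochondrial pathway were read from the same fit, 57 tested genes in all. Of these, 7 rose and 2 fell, with a median log2 fold change of −0.02. That share of calls was near the 15.1% of all genes tested, so a count at this level is not particular to the lists. In the other BCL2 family genes none of 5 tested genes passed by limma (1 at an unadjusted p under 0.05, and 1 lower by voom). That gene was BMF, a BH3-only gene, with 51.8, 49.3 and 56.3 FPKM in WT and 41.7, 46.7 and 40.7 FPKM in LenR. All LenR values lay below all WT values, and the log2 fold change was −0.28 (adjusted p = 0.0621 by limma, 0.00363 to 0.251 over its alternatives). BMF was above each of the 5 BH3-only members in every library, apart from BAD in LenR replicate 1. BCL2L2 (0.224 to 0.563 FPKM) and BNIP3 were under the filter. BCL2A1, BCL2L10, BCL2L14, BCL2L15, BOK and HRK were not found by these names among the 12760 genes with FPKM values.

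Downstream of the pore, 2 of 11 genes of the apoptosome and its inhibitors fell and none rose. Over all genes tested, 6.57% were called lower and 8.57% higher. At an unadjusted p under 0.05, 3 of the 11 were lower and 1 higher, and voom called 2 lower and 0 higher. CYCS, the gene of cytochrome c, which leaves mitochondria and assembles the apoptosome, measured 78.2, 78.4 and 53.9 FPKM in WT and 35.3, 28.5 and 43.5 FPKM in LenR. Every LenR value lay below every WT value (log2 fold change −0.95, SE 0.186, limma adjusted p = 0.0119), a call that was lost when LenR replicate 1 was left out (0.0607). BIRC3, the gene of the inhibitor of apoptosis cIAP2 and a target of NF-kB, measured 16.8, 16.4 and 14.2 FPKM in WT and 11.3, 10.2 and 12.4 FPKM in LenR. LenR again lay below WT throughout (−0.45, adjusted p = 0.0144), and leaving out any of 3 libraries, the first 2 of WT (0.0653 and 0.0617) or the first of LenR (0.0616), ended the call. APAF1, the apoptosome scaffold, had a log2 fold change of −0.26 and DIABLO, which blocks inhibitors of apoptosis, one of 0.20, and neither passed.

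Among 8 genes of MCL1 turnover, FBXW7, a ubiquitin ligase subunit that recognises phosphorylated MCL1, rose from 7.47 ± 0.33 to 8.97 ± 0.414 FPKM (SD, n = 3; log2 fold change 0.23, limma adjusted p = 0.0493) and none fell. Its call ended in each fit with 1 library left out (adjusted p 0.0842 to 0.147). At an unadjusted p under 0.05, 1 of the 8 turnover genes was higher and 1 lower. None of the 8 outer membrane partners, such as the channels VDAC1 to VDAC3, passed by limma, by voom or at an unadjusted p under 0.05. Of 14 genes that act on BAD, the kinase genes PIM1 (0.32) and PIM2 (0.34) rose, and no 14-3-3 gene passed. At an unadjusted p under 0.05, 2 of the 14 were higher and 1 lower, the lower a 14-3-3 gene (log2 fold change −0.27). Over all genes tested, limma called 8.57% higher and 6.57% lower. PIM1 did not pass when replicate 1 or 2 of either group was left out (adjusted p 0.0557 to 0.108), and PIM2 passed in 1 of these 6 fits, that without WT replicate 3 (0.0443).

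Of the 6 pathway lists, the regulators of BH3-only genes held the most calls, 4 of 11, all higher. DDIT3, the gene of the stress factor CHOP, measured 6.53, 7.07 and 6.91 FPKM in WT and 11.5, 8.41 and 10.6 FPKM in LenR (log2 fold change 0.50, limma adjusted p = 0.0166). MYC (0.60), the stress factor ATF3 (0.38) and TRIB3 (0.34, adjusted p = 0.0467), a target of CHOP, also rose. Leaving out replicate 1 of WT ended the calls of MYC (adjusted p = 0.0724) and DDIT3 (0.0672), as did leaving out replicate 1 of LenR (0.06 and 0.0654). MYC also lost its call when the second WT library was left out (0.071). TRIB3 passed in 10 of its 20 alternative fits.

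**Figure D4:**
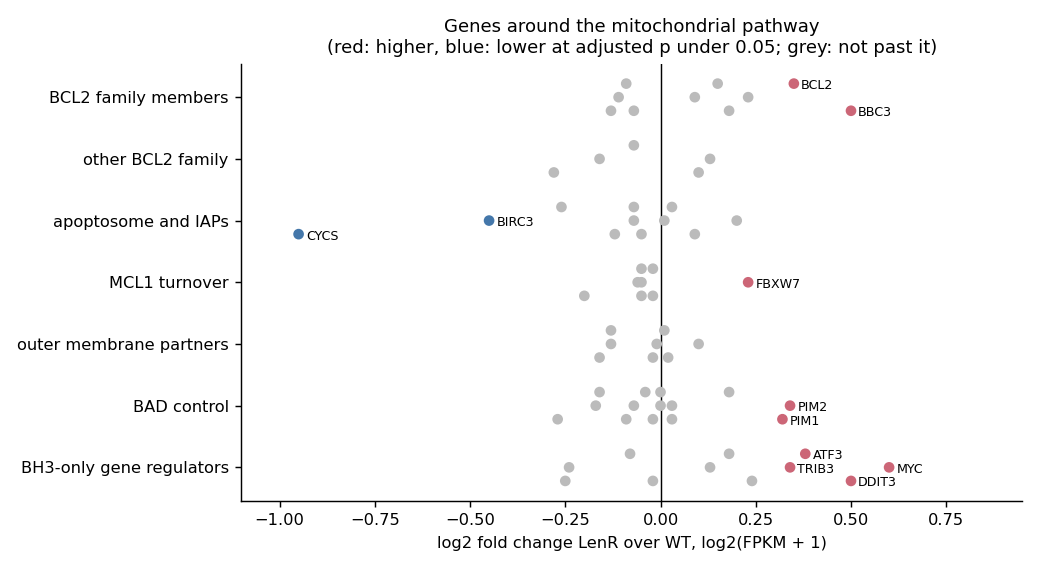
Log2 fold changes of LenR over WT (horizontal axis) for the tested genes of each list (rows), with genes past the adjusted threshold in red (higher) or blue (lower) and the others in grey. CYCS (−0.95) and BIRC3 (−0.45) lie to the left of all members, and MYC (0.60) to the right.

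Chromosome position was read from the other tested genes near each member. BCL2 (chromosome 18, 63123346 to 63320128, GRCh38) lies 3.42 Mb from PMAIP1, and 11 genes within 5 Mb of its start centred on a log2 fold change of −0.02 (median), with 5 above 0 and 0 called. BBC3 (chromosome 19, 47220822 to 47232766) lies 1.72 Mb from BAX. Its 159 neighbours had a median of 0.02, with 87 above 0 and 24 called, where 15.1% of all genes tested were called. The other members lie on chromosomes 1 (MCL1, 150574551 to 150579738), 2 (BCL2L11, 111119378 to 111168447), 6 (BAK1, 33572547 to 33580293), 11 (BAD, 64269830 to 64284704), 20 (BCL2L1, 31664452 to 31723989) and 22 (BID, 17734138 to 17774770). BAX spans 48954815 to 48961798 of chromosome 19 and PMAIP1 59899948 to 59904306 of chromosome 18. For all 10 members the neighbours' median lay between −0.03 and 0.07. Among the called genes of the pathway lists, the neighbours' median within 5 Mb lay furthest from 0 for CYCS and MYC. For the other called genes of these lists it lay between −0.05 (FBXW7) and 0.09 (BIRC3). All 30 neighbours of CYCS on chromosome 7 were below 0 (median −0.53, 24 called). Around MYC on chromosome 8, all 4 tested neighbours within 2 Mb were above 0 and called (median 1.28), and within 5 Mb 20 of 27 were above 0 and 10 called (median 0.13). The part of the neighbourhood in either change was not tested.

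**Figure D5:**
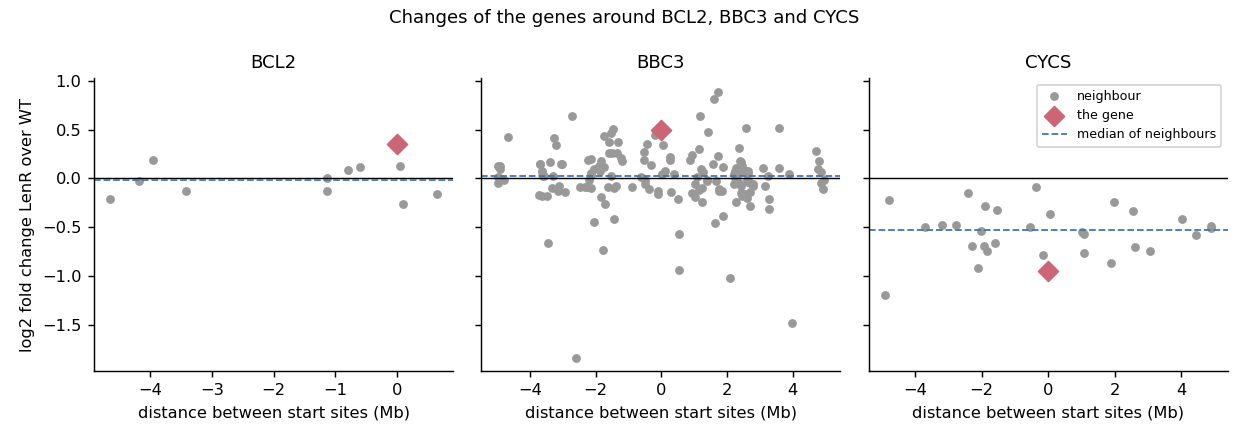
Log2 fold change of LenR over WT (vertical axis) of each tested gene within 5 Mb of BCL2, BBC3 and CYCS, against the distance between start sites in Mb. BCL2 (0.35) and BBC3 (0.50), as diamonds, lie above their neighbours' medians (dashed, −0.02 and 0.02), and CYCS (−0.95) lies among neighbours that are all below 0.

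The genes whose profile over the 6 libraries was most like that of BCL2 were ZBTB44 (Pearson r = 0.9977 on log2(FPKM + 1)) and TDG (0.9976), and for BBC3 they were MACROD1 (0.9977) and OTUD1 (0.9916), among 8309 genes whose mean reached 5 FPKM. With 6 libraries in 2 groups such values are common: 395 genes exceeded 0.9 with BCL2 and 505 with BBC3.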

How the data were processed

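RNA-seq was run on total RNA of 6 MM.1S cultures, with groups and columns taken from the sample labels. The authors deposited FPKM values for 12760 genes. Per the submitters' processing notes, the build was hg38, and the tools named were edgeR 3.40.2, featureCounts 2.0.3, HISAT2 2.2.1 and FastQC 0.11.9. For the annotation, the filter on expressed genes and the strand setting, nothing is given in the sources used here. Each gene's values were whole multiples of a step, which gave whole reads for all 12760 genes (within 0.005 of a read) and the gene length used.

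limma 3.58.1 (R 4.3.3) was fitted to log2(FPKM + 1) with group as the only term and a trended empirical Bayes prior, over 11276 genes whose mean reached 1 FPKM, two-sided, with Benjamini-Hochberg adjustment. Fold changes on this scale understate those of low genes. Positions are from GENCODE 29. The members, the lists and the alternatives were chosen with earlier results of these data known. Named genes were the 10 members, up to 3 called genes a direction from each list, and the 2 most similar genes of each called member; ABALON, TRIB3, the 5 called plasma cell markers, BMF, BCL2L2, APAF1 and DIABLO were added after their values were seen. One gene of the lists is counted but not reported here by name.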

Additional observations from a re-analysis of the deposited data

How the results depend on the processing

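All 10 members kept the sign of their log2 fold change in the 20 alternative fits. BCL2 lost its call in 5 fits, BBC3 in none. The count of members called higher was 1 with the replicate block (BCL2 adjusted p = 0.117, BBC3 0.0436) and 1 with WT replicates 1 and 2 averaged, and ranged from 1 to 3 with 1 library left out. It was 3 both when WT replicate 3 and LenR replicate 2 shared a term (BCL2L1 added) and when both were left out (BAX added). No member was called lower in any fit. Same-numbered replicates deviated with correlations of 0.024, −0.557 and −0.683, and 0 of 6 libraries correlated best with their own number. No pairing by number was thus visible. With 3 libraries per group this check cannot show that same-numbered cultures were unpaired. The median shift over all genes stayed within −0.012 and 0.004.

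Over all genes, 966 higher and 741 lower became 496 and 411 with the replicate block, 601 and 474 with a mean of at least 5 FPKM, 1729 and 1434 with that term, 1030 and 794 without those 2 libraries, and 576 and 476 with WT replicates 1 and 2 averaged. They ranged from 545 to 919 and from 461 to 681 with 1 library left out. The 7 higher and 2 lower genes of the pathway lists became 0 and 1 with the replicate block and 1 and 1 with the averaging. There were 4 higher at equal FPKM totals, and 7 lower with the term and 5 lower without those 2 libraries. Leaving out 1 library gave 1 to 6 higher and 0 to 3 lower. The cause was not tested.

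Guardians over killers (1.23 in WT, 1.20 in LenR) came to 0.551 and 0.600 without MCL1, to 0.975 and 1.00 with BCL2L2, BIK and BMF added, and to 2.14 and 2.18 in reads, which are not per length. They ranged from 1.22 to 1.23 and from 1.13 to 1.25 with 1 library left out. The neighbours' median changed with the window for every member but BAD (0.02 in each). Within 2 Mb and 10 Mb it was 0.00 and −0.04 for BCL2, 0.01 and 0.01 for MCL1, and −0.02 and −0.01 for BCL2L1. For BAX it was −0.02 and 0.03, for BAK1 0.06 and 0.02, and for BCL2L11 −0.10 and 0.01. For BBC3 it was 0.05 and 0.02, for PMAIP1 0.08 and −0.01, and for BID 0.11 and 0.04. PMAIP1 (152 to 235 reads a library) and BBC3 (192 to 293) rest on the fewest reads of the members.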
